A study of Mus musculus with 6 samples.

Results

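Lineage transcription factors are the proteins that set and keep the identity of a cell. The factors described here are those known for microglia, the resident macrophages of the brain, and they were taken as the rows of the deposited table whose gene symbol is *Spi1*, *Irf8*, *Sall1*, *Maf*, *Mef2a*, *Mef2c*, *Runx1*, *Cebpa* or *Bhlhe41*. All 9 symbols were found among the 19225 genes listed. The rule uses names only, although earlier results of these data were known when it was set. The comparison asks whether microglia of mice without the cannabinoid receptor CB1, encoded by *Cnr1*, differ in these factors from microglia of wild type mice.

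CD11b+ cells were enriched with magnetic beads from the brains, without cerebellum, of male mice aged 3 months kept free of stress. Each mouse gave 1 library, made from the 3′ ends of polyadenylated RNA. The 3 *Cnr1*+/+ mice carry the genotype label wt/wt and the strain label C57BL6/J. The 3 *Cnr1*-/- mice carry the genotype label d/d and the strain label *Cnr1* tm1Zim, a constitutive knockout on the C57BL/6J background in which a neomycin cassette disrupts the coding region. The allele is present in every cell of these mice, not in microglia alone, and the beads take up any cell with CD11b on its surface, other myeloid cells included.

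Microglia descend from yolk sac progenitors, and their identity rests on layers of factors that act together. PU.1 (encoded by *Spi1*), IRF8, RUNX1 and C/EBPα belong to the general programme of myeloid cells, in which PU.1 and IRF8 can bind composite sites as a pair. SALL1, MEF2A, MEF2C, MAF and BHLHE41 mark the programme of mature microglia, and SALL1 is the factor that distinguishes them most clearly from other macrophages.

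Several of these factors are known to act on genes of their own family, so the start sites were searched for the letters each family binds. RefSeq promoter windows (GRCm38.p6, 250 bases before to 50 after a start) were found for 7 of the 9 genes, with 13 windows in all. *Spi1* and *Maf* had no entry. The motifs searched on both strands were GAGGAAGT for PU.1, GAAA, any 2 bases and GAAA again for IRF factors, the MEF2 consensus capitalised in the *Mef2a* window below, TGTGGTT for RUNX, TTGCGCAA for C/EBP, CACGTG for BHLHE factors and the palindromic MAF recognition element. No motif overlaps another in the windows below. The 3 windows that hold the motif of their own gene's family are shown here, with that motif in capitals and 5′ to 3′ along the gene. They lie at chr7:67372809-67373108 (minus strand) for *Mef2a*, chr16:92826025-92826324 (minus strand) for the upstream start of *Runx1* and chr6:145865371-145865670 (minus strand) for *Bhlhe41*.
Mef2a: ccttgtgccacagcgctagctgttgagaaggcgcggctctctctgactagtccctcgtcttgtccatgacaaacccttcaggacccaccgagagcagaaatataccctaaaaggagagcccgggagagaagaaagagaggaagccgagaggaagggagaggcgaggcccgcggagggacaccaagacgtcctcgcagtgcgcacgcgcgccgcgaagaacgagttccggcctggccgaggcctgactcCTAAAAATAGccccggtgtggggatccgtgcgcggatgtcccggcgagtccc
Runx1: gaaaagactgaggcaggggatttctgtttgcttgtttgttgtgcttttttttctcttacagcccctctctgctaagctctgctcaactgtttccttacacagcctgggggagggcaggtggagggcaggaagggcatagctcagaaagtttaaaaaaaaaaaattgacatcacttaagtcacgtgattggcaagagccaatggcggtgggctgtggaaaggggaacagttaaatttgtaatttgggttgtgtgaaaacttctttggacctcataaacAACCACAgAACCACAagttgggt
Bhlhe41: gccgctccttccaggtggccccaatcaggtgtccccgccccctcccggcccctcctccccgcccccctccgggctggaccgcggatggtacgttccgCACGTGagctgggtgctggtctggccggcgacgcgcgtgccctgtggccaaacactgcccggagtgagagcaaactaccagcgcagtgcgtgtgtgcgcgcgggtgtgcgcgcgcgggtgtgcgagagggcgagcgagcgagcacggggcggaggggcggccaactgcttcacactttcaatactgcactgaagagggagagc

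The MEF2 letters begin 2 bases before the *Mef2a* start and run across it, and 0.110% of the 32851 promoter windows hold them. The *Runx1* window holds the reverse complement of the RUNX motif at 2 places, from bases 28 and 36 after the start, and 5.27% of all windows hold that motif. It also holds CACGTG, in lower case above, which 7.15% of all windows hold. In the *Bhlhe41* window CACGTG begins 153 bases before the start. The PU.1, IRF, C/EBP and MAF letters were in 0 of the 13 windows and in 3.20%, 3.44%, 0.183% and 0.00304% of all windows. The matches describe letters only. The windows differ widely in composition, with a G and C content from 35.7% at a *Mef2c* start to 79.7% at a *Sall1* start, where the median of all windows is 52.7%.

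Values are cpm, the reads of a gene relative to all reads of its library, scaled between libraries by the authors with TMM. The value of 1 read in each library gave sizes between 7708816 and 10723825 reads. These sizes carry the TMM scaling and are not the numbers of reads sequenced. The listed genes made up 50.1% to 59.1% of that scaled total. An interval or floor from reads covers counting error only. *Cnr1* itself had no read in the 3 libraries labelled *Cnr1*+/+ and stood at 1.41, 1.21 and 1.79 cpm in replicates 1, 2 and 3 labelled *Cnr1*-/-. Its reads thus lay in the group labelled as the knockout, and directions below are those of the labels. The libraries read 3′ ends, and where these reads lie relative to the disrupted coding region was not examined, so they do not settle the genotype. The authors report that they genotyped their mice by PCR. A gene list of 19 microglia genes, which holds the markers *Cx3cr1*, *P2ry12* and *Tmem119*, summed to between 26295 and 31604 cpm per library. In the library labelled *Cnr1*-/- replicate 2, the 10 neutrophil markers summed to 4109 cpm and the 7 erythrocyte markers to 2342 cpm, whereas in the other 5 libraries these sums reached at most 530 and 237 cpm.

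All 9 factors were clearly detected in every library. Since each transcript gives its reads from its 3′ end, the cpm values of different genes were set side by side without division by length. *Maf* was the most abundant, with a mean of 758.7 cpm over the 6 libraries, and *Runx1* the least, with 50.5 cpm, a 15.0-fold span. *Mef2c* followed *Maf* with 495.3 cpm and *Irf8* with 416.3 cpm. *Mef2a* had 287.8 cpm and *Sall1* had 280.2 cpm. *Cebpa*, *Spi1* and *Bhlhe41* lay at 114.6, 106.7 and 88.0 cpm. Among the 6659 genes tested, those averaging 10 cpm or more, *Maf* ranked 43rd and *Runx1* 1625th. The lowest value of *Maf* lay above the highest of *Mef2c*, and the same held between *Irf8* and *Mef2a*, between *Sall1* and *Cebpa* and between *Bhlhe41* and *Runx1*. Neighbours within these steps overlapped. *Mef2c* lay above *Irf8* in 6 of 6 libraries although their ranges overlapped, whereas *Mef2a* lay above *Sall1* in 4 of 6 and *Cebpa* above *Spi1* in 4 of 6.

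**Figure D1:**
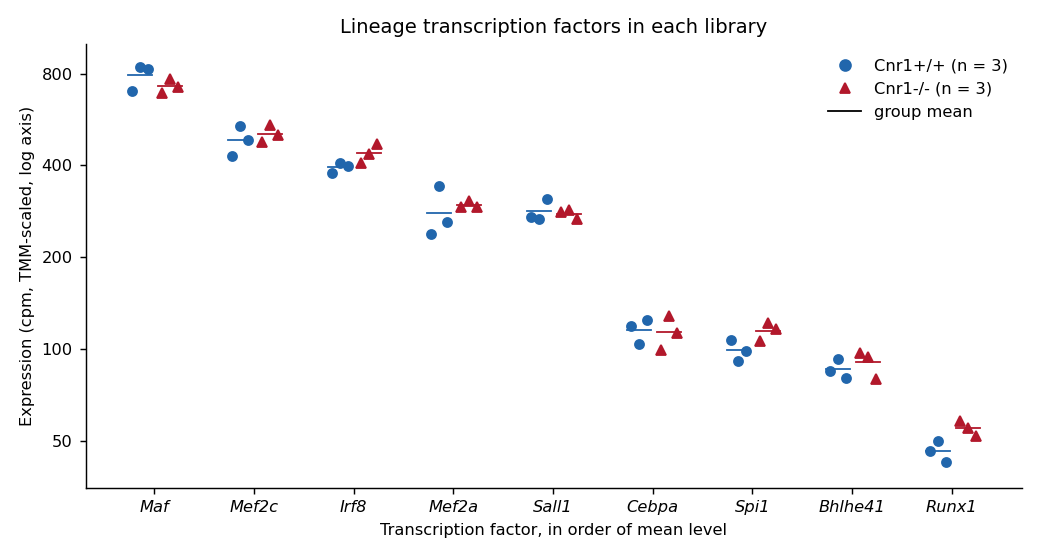
Expression (cpm, log axis) of the 9 factors in each library, in order of mean level, with circles for the 3 libraries labelled *Cnr1*+/+, triangles for the 3 labelled *Cnr1*-/- and lines for the group means. The levels run from 691 to 838 cpm for *Maf* down to 42.6 to 58.0 cpm for *Runx1*, and under this scaling the groups are apart only for *Runx1*.

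The factors differed little between libraries. The coefficient of variation within groups lay between 5.93% for *Irf8* and 13.6% for *Mef2a*. The least abundant factor, *Runx1*, still rested on 356 to 588 reads per library, for which counting alone gives a coefficient of variation of at most 5.30%. On the log2 scale the within-group SD of each of the 9 factors was below the median of the genes tested (0.22), with values from 0.08 to 0.19. *Irf8* and *Sall1* were among the steadiest, since only 3.42% and 4.6% of the genes tested had a smaller SD. By mean level the 9 factors lay between percentiles 75.6 (*Runx1*) and 99.4 (*Maf*) of the genes tested. The SDs were not compared among genes of like level, so low spread cannot be read as particular to these factors.

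None of the 9 factors passed the test between genotype labels. With limma on log2 (cpm + 0.1), 0 of 9 had a nominal p under 0.05, where 6.02% of all 6659 genes tested did (401 genes), and 0 of 9 reached an adjusted p under 0.1 together with a 1.5-fold change, as 0.0901% of the genes tested did (6 genes). The smallest nominal p over the 9 was 0.104 and their adjusted p lay between 0.845 and 0.986. The log2 difference (mean log2 level of the libraries labelled *Cnr1*-/- less that of the libraries labelled *Cnr1*+/+) was above 0 for 6 factors and below 0 for 3, and their median of 0.07 lay beside a median of 0.08 over all genes tested, of which 68.4% were above 0. With each library left out, the median ran from −0.0076 with 4 factors above 0 (without *Cnr1*+/+ replicate 1) to 0.15 with 6 above 0 (without *Cnr1*+/+ replicate 2), and 8 were above 0 without *Cnr1*+/+ replicate 3. The 95% limma interval of every factor lay within a 1.5-fold change in either direction, which held for 56.4% of the genes tested. Its widest bounds were a fold of 0.782 for *Maf* and of 1.47 for *Runx1*. Differences inside these intervals are not excluded by the test. Once the libraries were centred on their medians, 1 of the 9 factors (*Maf*, lower) had a nominal p under 0.05, where 5.63% of the genes tested did (2.96% higher and 2.67% lower), and 4 of the 9 were above 0, where 52.0% of the genes tested were. The change of sign came from *Mef2c* and *Bhlhe41*, whose centred differences were −0.0013 and −0.0056.

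**Figure D2:**
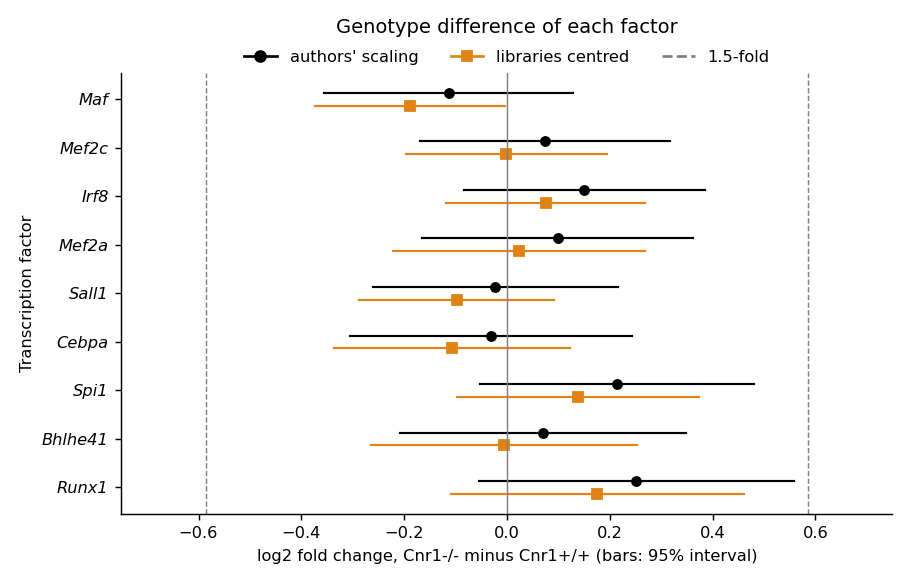
The log2 difference of each factor (libraries labelled *Cnr1*-/- minus those labelled *Cnr1*+/+) with its 95% limma interval, under the authors' scaling (circles) and with libraries centred on their medians (squares). All intervals stay inside the dashed lines at a 1.5-fold change, and only the centred interval of *Maf* leaves out 0, with an upper bound of −0.0037.

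Among the factors of the general myeloid programme, *Spi1*, which encodes PU.1, spans bases 91082390 to 91115756 of chromosome 2 (mm10, as are all gene positions here). It had 107, 91.2 and 98.3 cpm in replicates 1, 2 and 3 labelled *Cnr1*+/+. Its values in replicates 1, 2 and 3 labelled *Cnr1*-/- were 106, 122 and 116 cpm. The groups overlapped by a single pair, since replicate 1 labelled *Cnr1*+/+ lay just above replicate 1 labelled *Cnr1*-/-. Its log2 difference was 0.21 ± 0.13 (standard error), with a limma adjusted p of 0.857 (two-sided exact permutation p = 0.2, where 3 against 3 allow no less than 0.1). It was 0.14 after centring and 0.11 after rescaling libraries to equal totals without mitochondrially encoded genes.

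*Irf8*, an interferon regulatory factor without which microglia are altered in number and shape, lies on chromosome 8 from 120736358 to 120756694. It measured 378, 408 and 397 cpm under the label *Cnr1*+/+ and 408, 437 and 470 cpm under *Cnr1*-/-. The highest *Cnr1*+/+ value (407.95 cpm) and the lowest *Cnr1*-/- value (407.70 cpm) were nearly equal. The log2 difference of 0.15 ± 0.114 (standard error) did not pass (limma adjusted p = 0.90). It was 0.08 after centring and 0.05 after the same rescaling. The gene model *Gm20388*, which spans the whole of *Irf8* on the same strand, held only 2.43 to 8.02 cpm.

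*Runx1*, a factor needed for the emergence of blood cells and active in early microglia, lies on chromosome 16 from 92601466 to 92826149. Its values were 46.2, 49.7 and 42.6 cpm under the label *Cnr1*+/+ and 58.0, 54.8 and 51.9 cpm under *Cnr1*-/-. Every value of the second group lay above every value of the first, which made *Runx1* the only 1 of the 9 factors whose groups were apart, where 8.85% of the genes tested were apart in this direction and 2.13% in the other. The group means were 46.2 ± 3.54 and 54.9 ± 3.08 cpm (SD, n = 3 each). On the log2 scale the difference was 0.25 ± 0.149 (standard error), the largest of the 9 factors under the authors' scaling, and it did not pass (limma adjusted p = 0.845). After centring, the groups of *Runx1* overlapped, with a log2 difference of 0.18, and it was 0.15 both after quantile normalisation and after rescaling without mitochondrially encoded genes. In these settings the difference of *Maf* was larger in size, at −0.19, −0.22 and −0.21.

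*Cebpa*, which encodes C/EBPα, a factor of myeloid and granulocyte differentiation, lies on chromosome 7 from 35119293 to 35121928. It had 119, 104 and 124 cpm under the label *Cnr1*+/+. Under the label *Cnr1*-/- it had 99.3, 128 and 113 cpm, so that the lowest and the highest of the 6 values both came from this group. The log2 difference was −0.03 ± 0.134 (limma adjusted p = 0.986). Granulocytes also express *Spi1* and *Cebpa*, and the library with the high neutrophil sum, replicate 2 labelled *Cnr1*-/-, held the highest value of each under the authors' scaling. After centring, replicate 1 labelled *Cnr1*+/+ held the highest of each, with 117 cpm of *Spi1* against 112 cpm in the library with the high neutrophil sum. The neutrophil markers ranged in sum from 273 to 502 cpm under the label *Cnr1*+/+ and from 269 to 4109 cpm under *Cnr1*-/-, with 9 of the 10 above 0 in every library and *Ly6g* at 0 in some. Of the 9 tested, 7 rose at a nominal limma p under 0.05, where 5.09% of all genes tested rose. Their median log2 difference was 1.26, beside 0.08 over all genes tested. The 4 erythrocyte markers tested all rose. After centring, 3 neutrophil markers and 1 erythrocyte marker rose, where 2.96% of all genes tested did. Centred, the log2 difference of *Cebpa* was −0.11. Without the library of the high neutrophil sum the log2 difference was 0.17 for *Spi1* and −0.12 for *Cebpa*, and neither passed. The part of these cells in the values was not tested, and a change in the number of cells and a change in RNA per cell cannot be told apart in such bulk samples.

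Among the factors of mature microglia, *Sall1*, a zinc finger protein that keeps inflammatory genes low, lies on chromosome 8 from 89027235 to 89044162. It measured 272, 267 and 310 cpm under the label *Cnr1*+/+. Under *Cnr1*-/- it measured 281, 285 and 267 cpm, all within the range of the other group. Its log2 difference of −0.02 ± 0.116 (limma adjusted p = 0.986) had a 95% interval of −0.26 to 0.22. It was −0.10 after centring, −0.13 after quantile normalisation and −0.12 after rescaling without mitochondrially encoded genes, and did not pass in any of these.

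*Maf*, a large bZIP factor of macrophages, lies on chromosome 8 from 115682942 to 115707794. It had 699, 838 and 831 cpm under the label *Cnr1*+/+ and 691, 770 and 722 cpm under the label *Cnr1*-/-. Replicate 1 labelled *Cnr1*+/+ lay among the values of the other group. Its log2 difference was −0.11 ± 0.118 (limma adjusted p = 0.927). The median level of the genes tested was higher in the libraries labelled *Cnr1*-/- by 0.08 on the log2 scale, and *Maf* was the only factor that crossed the nominal threshold once libraries were centred. After that centring, *Maf* had 766, 864 and 796 cpm under the label *Cnr1*+/+ against 707, 709 and 710 cpm under *Cnr1*-/-. The groups were then apart, as were those of 5.27% of the genes tested in this direction and 5.24% in the other, and the log2 difference was −0.19 with a nominal p of 0.0461. Its limma adjusted p was 0.884 under this scaling, and with the replicate number as a block beside the centring its nominal p was 0.0787. Border-associated macrophages also express *Maf*, and their 9 markers, all above 0 in every library, summed to 317 to 444 cpm under the label *Cnr1*+/+ and to 350 to 380 cpm under *Cnr1*-/-. *Stab1* alone, with 189 to 282 cpm, made up most of this sum and differed by 0.10 on the log2 scale. Of the 8 markers tested, 5 were below 0 and 3 above, with a median of −0.27 beside 0.08 over all genes tested. *Pf4* was the 1 marker that fell at a nominal p under 0.05, where 0.931% of all genes tested fell. After centring, the median was −0.35, beside 0.01 over all genes tested, and 3 fell, where 2.67% of all genes tested did (*Pf4*, *Cbr2* and *Clec10a*, all named after their values were seen). The part of these cells in *Maf* was not tested.

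*Mef2c* and *Mef2a* encode MADS-box factors that bind the same letters. *Mef2c* lies on chromosome 13 from 83504034 to 83667080 and had 430, 536 and 484 cpm under the label *Cnr1*+/+ and 477, 541 and 504 cpm under *Cnr1*-/-. *Mef2a* lies on chromosome 7 from 67231163 to 67372858 and had 238, 342 and 260 cpm against 291, 305 and 291 cpm. For both genes replicate 1 labelled *Cnr1*+/+ was the lowest of the 6 libraries, and for *Mef2a* replicate 2 of the same label was the highest. The log2 differences were 0.07 ± 0.118 for *Mef2c* and 0.10 ± 0.128 for *Mef2a* (limma adjusted p = 0.954 and 0.946), and after centring −0.0013 and 0.02. The spread of *Mef2a* was far wider under the label *Cnr1*+/+ (SD 54.7 cpm, n = 3) than in the others (SD 8.08 cpm, n = 3), and the difference in spread was not tested. Of the gene models that overlap *Mef2a*, *Gm44667* and *Gm44668* lie on its strand and *Lysmd4* on the other, and none exceeded 18.3 cpm. Neurons also express both genes. The 9 neuron markers, all above 0 in every library, summed to 66.9 to 111 cpm under the label *Cnr1*+/+ and to 91.8 to 116 cpm under *Cnr1*-/-, and their part was not tested.

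*Bhlhe41*, a repressor that also takes part in the circadian clock, lies on chromosome 6 from 145858243 to 145865558. Its values were 84.6, 92.5 and 80.4 cpm under the label *Cnr1*+/+ and 97.2, 93.7 and 79.8 cpm under *Cnr1*-/-. The groups overlapped over most of their range. On the log2 scale the difference was 0.07 ± 0.136 (limma adjusted p = 0.963).

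**Figure D3:**
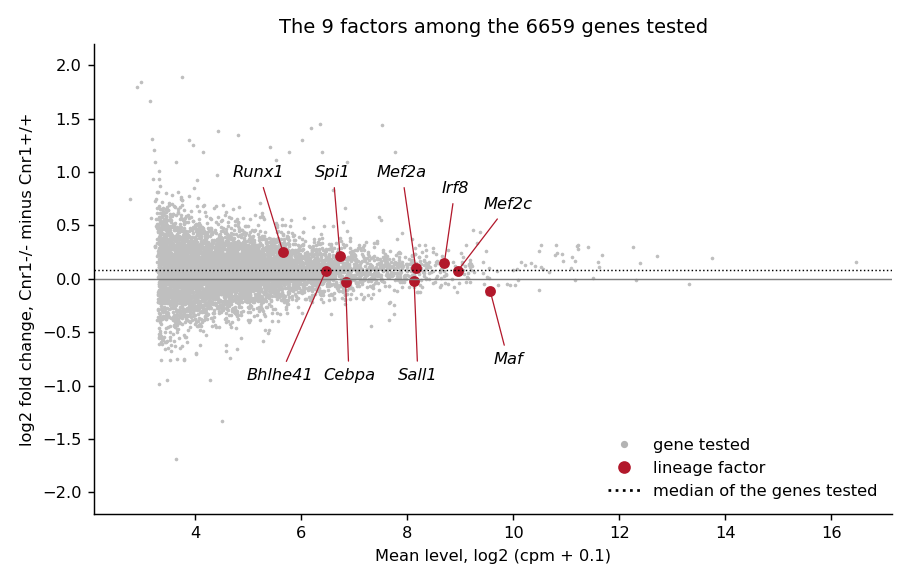
The log2 difference of each of the 6659 genes tested (grey) against its mean level in log2 (cpm + 0.1), with the 9 factors in red and the median of all genes as a dotted line. The factors lie between −0.11 and 0.25.

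To see whether members of a pair shifted against each other, ratios were taken within each library, where the scaling between libraries cancels. Each ratio was taken after 0.1 cpm was added to both values, which lowers the ratio where the second gene is low. *Mef2c* exceeded *Mef2a* between 1.57-fold and 1.86-fold in all 6 libraries. *Irf8* exceeded its partner *Spi1* between 3.53-fold and 4.47-fold. The ratio of *Runx1* to *Cbfb*, its DNA-binding partner, lay between 1.31 and 1.76. *Cebpa* exceeded *Cebpb* between 5.07-fold and 9.87-fold, with a difference of −0.38 on the log2 scale (two-sided exact permutation p = 0.3, adjusted over 5 pairs 0.875). *Bhlhe41* exceeded its relative *Bhlhe40* between 21.9-fold and 132.5-fold, where *Bhlhe40* itself ran from 0.599 to 3.76 cpm. For none of the 5 pairs were the groups apart, and the exact permutation p was 0.3 or more.

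**Figure D4:**
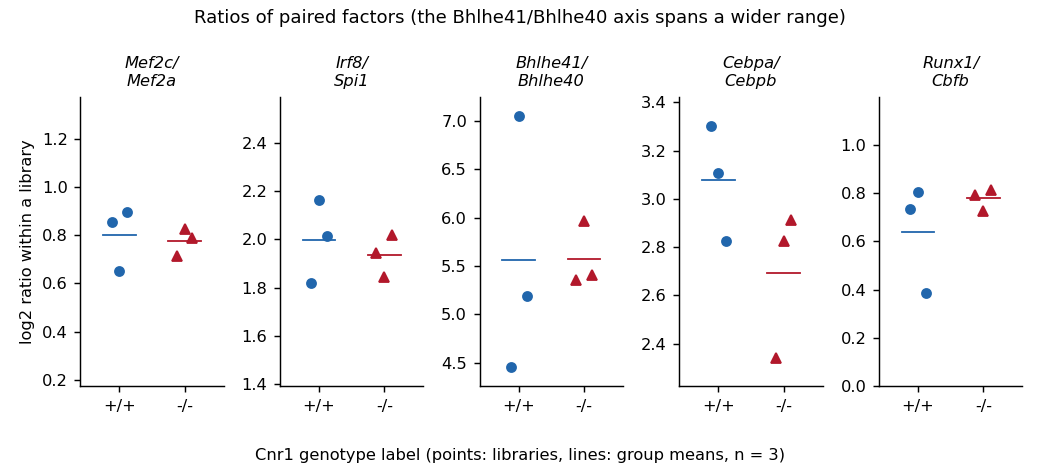
Log2 ratio of each pair of factors within each library, with circles for *Cnr1*+/+, triangles for *Cnr1*-/- and lines for the group means (n = 3 each). The groups overlap in every panel, and the largest difference of means is that of *Cebpa* over *Cebpb*, with 3.08 and 2.69.

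Relatives and partners of the 9 factors were compared as a list of 20 genes, of which 18 were listed and 10 reached the level needed for the test. Of the 10, 3 rose at a nominal p under 0.05 in the libraries labelled *Cnr1*-/- and 0 fell, where 5.09% of all genes tested rose and 0.931% fell. None of the 10 had an adjusted p under 0.1. Their median log2 difference was 0.22, beside 0.08 for all genes tested, and 0.14 beside 0.01 after centring. *Irf5*, a regulator of inflammatory genes, had 80.7, 102 and 97.3 cpm under the label *Cnr1*+/+ and 116, 135 and 112 cpm under *Cnr1*-/-, a log2 difference of 0.38 (limma adjusted p = 0.690). *Sall3*, a relative of *Sall1*, had 97.0, 115 and 105 cpm against 119, 156 and 141 cpm, also a log2 difference of 0.38 (limma adjusted p = 0.655). *Mafg*, a small MAF protein that pairs with other bZIP factors, had 140, 135 and 122 cpm against 163, 153 and 162 cpm, a log2 difference of 0.27 (limma adjusted p = 0.809). The groups of these 3 genes were apart, as were those of 8.85% of the genes tested in this direction, but those of *Mafg* overlapped after centring. *Irf5* and *Sall3* were highest in the library labelled *Cnr1*-/- replicate 2, the one with the high neutrophil and erythrocyte sums. The part of those cells in these values was not tested. Without that library only *Mafg* passed at the nominal threshold, while *Irf5* and *Sall3* had log2 differences of 0.30 each, with nominal limma p of 0.0617 and 0.0616. After centring, *Irf5* and *Sall3* passed and *Mafg*, with a log2 difference of 0.19, did not. *Mafg* also missed the nominal threshold without *Cnr1*+/+ replicate 3, *Cnr1*-/- replicate 1 or *Cnr1*-/- replicate 3 (nominal p of 0.105, 0.102 and 0.0992), and with eBayes without trend (0.104). The same held after quantile normalisation, after rescaling and with centring and block together (nominal limma p of 0.103, 0.149 and 0.111). Other settings called other genes of this list, named here after their values were seen. *Irf1* rose without *Cnr1*+/+ replicate 1, *Cnr1*+/+ replicate 3 or *Cnr1*-/- replicate 1, where 4.36%, 8.29% and 4.87% of all genes tested rose. *Cebpb* rose without *Cnr1*+/+ replicate 3. *Spib*, *Spic*, *Maff* and *Runx2* were listed at 0 in some libraries.

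**Figure D5:**
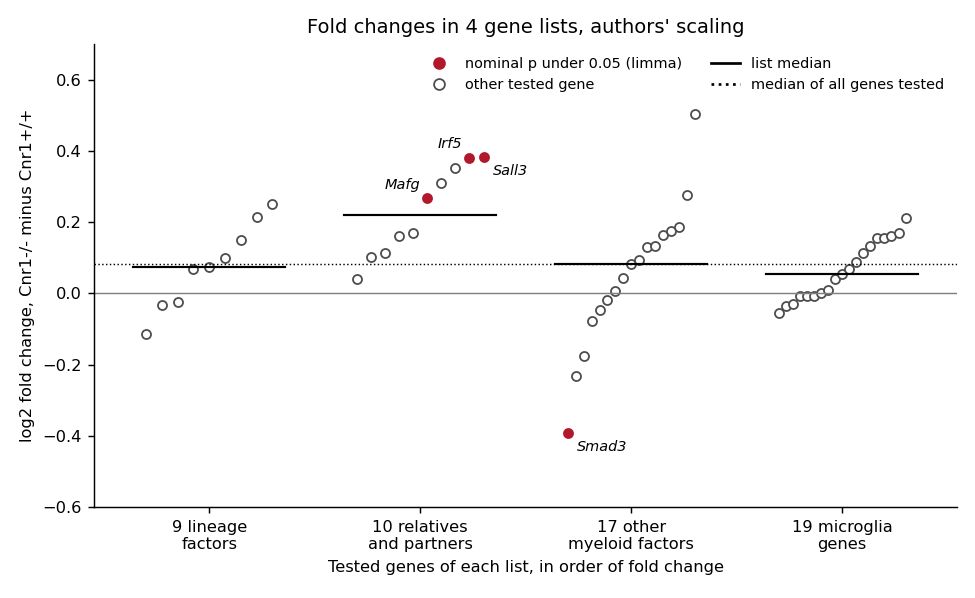
Log2 differences (libraries labelled *Cnr1*-/- minus those labelled *Cnr1*+/+) of the tested genes of 4 lists, each point a gene, filled where the nominal limma p was under 0.05, with the list median as a line and the median of all genes as a dotted line. The 9 factors, the 17 other myeloid factors and the 19 microglia genes have medians of 0.07, 0.08 and 0.05, and the 10 relatives and partners one of 0.22.

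Factors that mark other tissue macrophages were low. Of 8 such genes, 6 were listed and only *Nfatc1*, with 24.4 to 35.8 cpm, reached the minimum level. *Spic*, known for macrophages of the splenic red pulp, did not exceed 0.933 cpm, and *Id3* and *Nr1h3*, known for Kupffer cells, did not exceed 3.17 and 2.06 cpm. Of 24 other factors of myeloid cells, 17 were tested, 0 rose and 1 fell, where 5.09% of all genes tested rose and 0.931% fell. Other settings called other genes, which are named here after their values were seen. *Ets2* rose with eBayes without trend and without *Cnr1*+/+ replicate 2, where 4.76% and 4.62% of all genes tested rose. *Elf1* rose without *Cnr1*+/+ replicate 3, where 8.29% rose. *Zeb2* fell after rescaling and without *Cnr1*+/+ replicate 1, where 3.19% and 1.53% fell. The most abundant, *Ikzf1*, *Nfe2l2* and *Stat3*, differed by 0.09, −0.05 and 0.19 on the log2 scale, and by 0.02, −0.12 and 0.11 after centring. The 1 that fell was *Smad3*, which carries TGF-β signals, with 50.3, 43.2 and 56.7 cpm under the label *Cnr1*+/+ and 39.2, 47.6 and 29.2 cpm under *Cnr1*-/-, a log2 difference of −0.39 (limma adjusted p = 0.809). Its groups overlapped, and without the library labelled *Cnr1*-/- replicate 3 its log2 difference was −0.20 with a nominal p of 0.286. Without replicate 3 or 1 labelled *Cnr1*+/+ or replicate 1 labelled *Cnr1*-/- its nominal p was 0.137, 0.0552 and 0.0545, and with eBayes without trend it was 0.0813. In other settings the difference was larger, at −0.47 after centring (nominal p of 0.0106, groups apart, as were 5.27% of the genes tested in this direction), −0.49 after rescaling without mitochondrially encoded genes and −0.56 without replicate 2 labelled *Cnr1*-/-.

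Genes typical of microglia, which lie downstream of this network, did not pass the test either. Of the 19 tested, 0 had a nominal p under 0.05, where 6.02% of all genes tested did. A log2 difference above 0 was found for 13, and the median was 0.05, beside 68.4% and a median of 0.08 over all genes tested. After centring, 8 were above 0 and the median was −0.02, beside 52.0% and 0.01, and after quantile normalisation 5 were above 0 with a median of −0.06. Without *Cnr1*+/+ replicate 3 all 19 were above 0 with a median of 0.15, and without *Cnr1*+/+ replicate 2 there were 10 with a median of 0.0042. *Csf1r*, the receptor for the growth factor that keeps microglia alive and a classic target of PU.1, had 3049, 2750 and 3052 cpm under the label *Cnr1*+/+ and 3062, 3358 and 3441 cpm under *Cnr1*-/-. Its groups were narrowly apart, as were those of 8.85% of the genes tested in this direction, and its log2 difference was 0.16 (limma adjusted p = 0.90). After centring, its groups overlapped and the difference was 0.08. The 3 most abundant genes of the list were *Cst3*, a protease inhibitor, *Cx3cr1*, the fractalkine receptor, and *Csf1r*. *Cst3* had a log2 difference of 0.21 and *Cx3cr1* one of −0.01, and after centring 0.14 and −0.08. The centred groups of *Cst3* were apart, as were those of 5.24% of the genes tested in this direction. Without the library labelled *Cnr1*+/+ replicate 3, 3 of the 19 (*Trem2*, *Cst3* and *Ctss*) passed at the nominal threshold, all higher, where 8.29% of the genes tested rose.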

How the data were processed

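The authors aligned trimmed reads to mm10 with STAR and quantified them against Ensembl transcripts by expectation-maximisation in Partek Flow, followed by TMM. The deposited values are CPM for 6 libraries. Of the values, 84.9% to 86.9% equalled a whole number of reads (within 0.05 reads), too few for a count test. limma 3.58.1 in R 4.3.3 (eBayes with trend, genotype the only term) was therefore run on log2 (cpm + 0.1) for 6659 genes averaging 10 cpm or more, with Benjamini-Hochberg adjustment over all. Ratios were compared by two-sided exact permutation in scipy 1.17.1. End coordinates are the deposited stops less 1, as in GENCODE. The mice were littermates, but which shared a litter is not given.

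The members and lists were chosen with earlier results of these data known. The text names the 9 factors, list genes with a nominal p under 0.05, the 3 most abundant of each list, overlapping genes and the gene most like each factor. Other genes were named after their values were seen. Alternatives changed the pseudocount (1 or 0.0001), the filter (none, or 20 cpm), the scaling (median centring, quantiles, or totals without mitochondrial genes), the model (no trend, vooma weights, or a replicate block) or the libraries (each omitted once). Centring with the block was added after seeing the data. A pair and some list genes are not reported here and were left out of the lists.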

Additional observations from a re-analysis of the deposited data

How the results depend on the processing

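No factor had an adjusted p under 0.1 in any of the 17 alternatives (lowest 0.661), and of 153 refits of single factors 135 kept the direction and the side of the nominal threshold. *Maf* passed the nominal threshold in 3 of them, with a log2 fold change of −0.19 after centring, −0.22 after quantile normalisation and −0.21 after rescaling, but not with centring and block together. Directions turned only for factors whose main log2 difference lay between −0.031 (*Cebpa*) and 0.099 (*Mef2a*). The turned values were of like size, up to −0.086 for *Mef2c* and 0.061 for *Cebpa*. With all 6 libraries the turns were those of *Mef2a* after rescaling (−0.00070), *Mef2c* after centring, quantile normalisation and rescaling (−0.0013, −0.086 and −0.025; −0.0013 with centring and block) and *Bhlhe41* in the same order (−0.0056, −0.018 and −0.030; −0.0056 with centring and block). With each library left out, *Sall1* ranged from −0.063 to 0.045, *Mef2a* from −0.010 to 0.25, *Mef2c* from −0.0076 to 0.15 and *Cebpa* from −0.12 to 0.061, while *Bhlhe41* ranged from 0.014 (without *Cnr1*-/- replicate 1) to 0.16 (without *Cnr1*-/- replicate 3), *Maf* from −0.20 (without *Cnr1*+/+ replicate 1) to −0.068 (without *Cnr1*+/+ replicate 2) and *Irf8* from 0.098 (without *Cnr1*-/- replicate 3) to 0.20. The differences in log2 ratio then ranged from −0.10 to 0.023 for *Mef2c*/*Mef2a*, −0.15 to 0.018 for *Irf8*/*Spi1*, −0.54 to 0.75 for *Bhlhe41*/*Bhlhe40*, −0.51 to −0.21 for *Cebpa*/*Cebpb* (−0.21 without *Cnr1*-/- replicate 1) and 0.010 to 0.22 for *Runx1*/*Cbfb* (0.010 without *Cnr1*+/+ replicate 3).

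Genes with a nominal p under 0.05 numbered 993 with no filter, 263 with a minimum of 20 cpm and 251 to 600 with each library left out (251 without *Cnr1*-/- replicate 2). Genes past the adjusted threshold and a 1.5-fold change numbered 14 with no filter, 0 after centring, quantile normalisation, rescaling or without trend, 2 with centring and block, and 1 to 24 with each library left out (14, 1 and 16 without *Cnr1*+/+ replicate 1, 2 and 3, and 24 without *Cnr1*-/- replicate 3). Those settings without such genes still had 375, 360, 354 and 391 genes at a nominal p under 0.05. The replicate number as a block gave 421 genes at a nominal p under 0.05 and called no factor. Deviations of same-numbered libraries from their group means correlated at −0.056, −0.032 and −0.031. With 3 libraries per group, these values cannot show whether the numbers pair the mice. The cause of these changes was not tested.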

Other observations

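Over the 6 libraries, with each centred on its median, *Mef2a* and *Mef2c* had the highest Pearson r of the 36 pairs of factors (Pearson r = 0.96, Spearman rho = 0.77, exact permutation p = 0.0125 and 0.103, the first 0.45 when adjusted over the 36 pairs). Without the 2 libraries farthest from the median of *Mef2a*, r was 0.72. The relation was not tested within genotype labels, which hold 3 libraries each. By Pearson r the next pair was *Runx1* and *Bhlhe41* (r = 0.76, rho = 0.83, exact permutation p = 0.0278 and 0.0583, the first 0.50 when adjusted), whose r fell to 0.086 without the 2 libraries farthest from the median of *Runx1*. The lowest Pearson r was that of *Spi1* and *Maf* (r = −0.77, rho = −0.43, exact permutation p = 0.0917 and 0.419, the first 0.68 when adjusted), but r was 0.78 without the 2 libraries farthest from the median of *Spi1*, so the relation rests on those. By rank the order differed. The highest rho was that of *Mef2a* and *Runx1* (rho = 0.89, r = 0.53, exact permutation p = 0.0333 and 0.232, the second 0.68 when adjusted; r = 0.69 without the 2 farthest libraries). The lowest was that of *Mef2a* and *Cebpa* (rho = −0.89, r = −0.69, exact permutation p = 0.0333 and 0.115, the second 0.68 when adjusted; r = −0.98 without the 2 farthest libraries).

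As a description, the tested gene whose pattern over the 6 libraries was most like that of *Spi1* was *Hypk* (r = 0.997), that of *Irf8* was *Gm29216* (r = 0.994), that of *Sall1* was *Sf3a1* (r = 0.982), that of *Maf* was *Washc4* (r = 0.980), that of *Mef2a* was *Arhgap5* (r = 0.978), that of *Mef2c* was *Nae1* (r = 0.982), that of *Runx1* was *Git2* (r = 0.986), that of *Cebpa* was *Pdrg1* (r = 0.995) and that of *Bhlhe41* was *Wwc2* (r = 0.993). Each was the highest of 6658 values of r, each over 6 libraries, and between 36 and 81 genes had an r over 0.9 with a given factor.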
